A study of Mus musculus with 12 samples.

Results

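The comparison pools mouse lung tumours given either of 2 amino acids, 3 libraries labelled Taurine and 3 labelled Proline, and sets these 6 against the 3 libraries labelled Model, which are untreated orthotopic lung tumours, that is, tumours grown inside the lung. These 9 of the 12 libraries of the series were chosen by the treatment label, and the question is which genes had all 6 treated libraries on one side of the 3 untreated ones. The remaining 3 libraries, labelled Control, are normal lung in the series' description, although the tissue label calls all 12 lung tumour. The sample names give C57 mice in every group. The sources used here do not state the cell line or mutation behind the tumours, the dose, route and duration of each amino acid, or the age and sex of the animals. Nothing says whether the 3 libraries of a group come from separate animals, so the p-values measure only the spread between these samples.

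Taurine is an amino sulfonic acid made from cysteine by cysteine dioxygenase and cysteine sulfinic acid decarboxylase, and it is taken up by the transporter Slc6a6. Proline is made from glutamate or ornithine, is a major building block of collagen, and is broken down in mitochondria by proline dehydrogenase. The series' description says that both were found to promote lung tumour progression in mouse models.

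The tumour libraries held 62579271 to 69456490 counts each, and 23191 genes passed the filter on low counts. Markers of the alveolar type 2 cell, the surfactant-making cell of the lung, summed to 25402 to 28209 CPM (counts per unit of library size, scaled alike in all libraries) in Control and to 63.0 to 882 CPM in the tumours, with the highest tumour value in Proline 1. The proliferation marker Mki67 had 231 to 296 CPM in the 9 tumour libraries and 19.5 ± 3.72 CPM (SD, n = 3) in Control. The spread between libraries was large, with a common biological coefficient of variation of 0.437. Across genes, the median correlation was 0.984 between a treated and a Model library and 0.985 between libraries of 1 group, where genes are not independent replicates. Between any 2 treated libraries, of the same or different amino acids, the median was 0.981.

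No gene differed between the pooled treated tumours and Model by edgeR's quasi-likelihood test at an adjusted p of 0.05 (0 of 23191, 0%), and the smallest adjusted p was 0.109, for Samd12. At an unadjusted p under 0.05 there were 2079 genes (8.96%), of which 953 (4.11%) were higher and 1126 (4.86%) were lower in the treated tumours. DESeq2 on the same counts called 177 genes, 89 higher and 88 lower, of which 92 had the treated and Model libraries apart. Leaving out Model 3 gave 17 calls by edgeR, 9 higher and 8 lower, and leaving out Taurine 1 gave 1. The lower calls without Model 3 included the liver genes Alb, Fabp1, Ahsg and Cyp2e1. Among the tumour libraries, these were high in Model 1 and Model 2 only. By libraries alone, 762 genes (3.29%) had all 6 treated libraries on one side of the 3 Model libraries, 301 above (1.3%) and 461 below (1.99%). Genes that do not differ can also meet this condition by chance. The share that would do so was not measured here, so the count is not evidence of a shared effect. Scaling by library totals gave 222 above and 600 below, and the deposited FPKM gave 232 above and 569 below, so the balance of directions depended on the scaling. The count of 762 became 1567 without Model 1, 1452 without Model 2 and 2438 without Model 3. It was 1358 without Taurine 3 and 918 without Proline 2. Fewer libraries make the condition easier to meet, but the count also depended on which library was left out, for a reason not tested. The verbs "higher" and "lower" below describe measured levels of genes that did not pass the test unless a passing test is named. Genes named below for a small p or as separated list members were eligible only with the libraries apart. Their lack of overlap with Model therefore follows from the choice and is not a separate result.

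**Figure D1:**
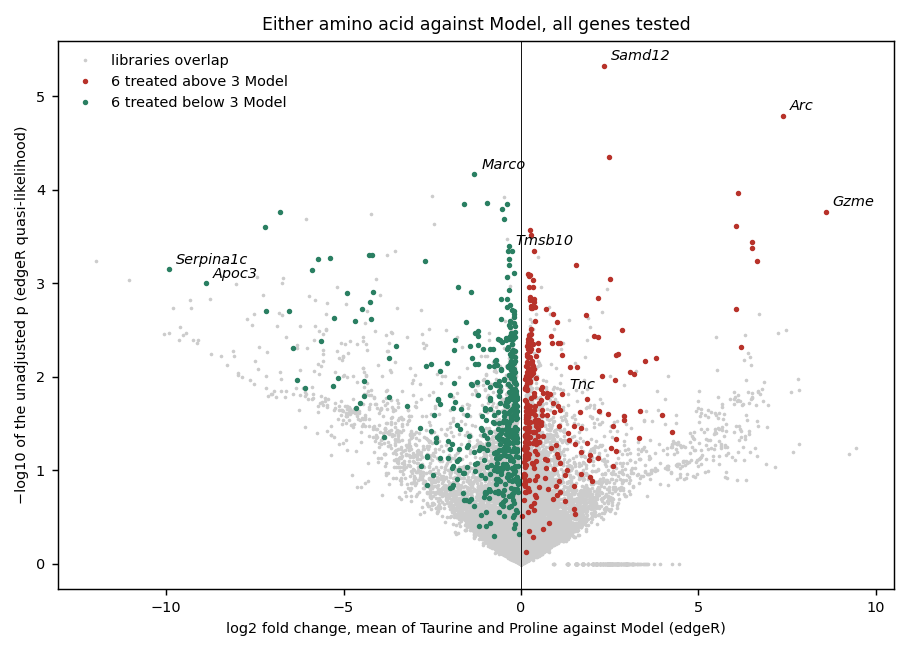
Each point is 1 of 23191 genes, with the log2 fold change of the mean of Taurine and Proline against Model on the x axis and −log10 of the unadjusted edgeR p on the y axis. Red genes have all 6 treated libraries above the 3 Model libraries (301), green genes have all 6 below (461), and grey genes overlap. Samd12 has the smallest p and no gene passed an adjusted p of 0.05.

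The separations were mostly small. Among the 301 genes above Model, 229 averaged at least 1 CPM in the higher group, and 198 of these 229 differed by less than 1.5-fold, with a median log2 fold change of 0.25. Among the 461 below, 343 averaged at least 1 CPM, and 263 of these differed by less than 1.5-fold, with a median of -0.33. The gap between the nearest treated and Model libraries had a median of 0.05 on the log2(CPM + 0.5) scale for the higher genes and 0.06 for the lower genes. A gap of at least 0.5 on that scale was found for 7 genes, 3 higher (Samd12, Cxcl14 and Gzme) and 4 lower (Apof, Cfhr4, Igkv12-41 and E530011L22Rik), which are named here after their values were seen. Mvd, an enzyme of cholesterol synthesis, lay just inside the condition, with a lowest Model library of 24.0 CPM and a highest treated library of 24.0 CPM that was lower in the next decimals. Slc1a5, a transporter of glutamine, lay just outside it, with a highest Model library of 108.8 CPM and a lowest treated library of 107.6 CPM.

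The promoters of 4 of the genes with the smallest p in each direction are shown first, Tmed5 and Eif5 from the higher genes and Ggact and Marco from the lower genes, as examples of what the separated genes carry upstream of their starts. Each is the 250 bases before the annotated start in RefSeq on GRCm38.p6, written 5′ to 3′ on the gene's strand, with matches to any of 5 motifs in capitals on either strand. The motif of the GC box was GGGCGG and that of the CCAAT box was CCAAT. The half-site of the cyclic AMP response element was searched as TGACG and the AP-1 site as TGACTCA. The E-box was searched as CACGTG, and bases shared by overlapping matches of any motifs are written once in the same run. These 4 were picked after the values were seen.
Tmed5, chr5:108132621-108132870, minus strand: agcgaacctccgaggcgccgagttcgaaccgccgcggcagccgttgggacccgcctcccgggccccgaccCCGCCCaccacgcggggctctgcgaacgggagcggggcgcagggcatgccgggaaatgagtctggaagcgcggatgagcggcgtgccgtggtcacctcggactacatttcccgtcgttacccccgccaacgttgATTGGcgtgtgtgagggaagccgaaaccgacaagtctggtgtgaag
Eif5, chr12:111537851-111538100, plus strand: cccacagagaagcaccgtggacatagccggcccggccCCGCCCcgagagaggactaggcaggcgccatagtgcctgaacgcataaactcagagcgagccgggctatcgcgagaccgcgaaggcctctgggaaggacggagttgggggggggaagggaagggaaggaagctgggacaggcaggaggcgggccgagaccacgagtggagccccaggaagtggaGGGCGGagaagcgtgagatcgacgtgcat
Ggact, chr14:122913166-122913415, minus strand: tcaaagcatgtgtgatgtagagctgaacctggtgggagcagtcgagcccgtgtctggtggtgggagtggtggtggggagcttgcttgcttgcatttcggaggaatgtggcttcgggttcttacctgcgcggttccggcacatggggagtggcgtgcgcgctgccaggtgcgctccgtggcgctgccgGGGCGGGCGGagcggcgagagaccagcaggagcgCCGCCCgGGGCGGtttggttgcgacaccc
Marco, chr1:120505025-120505274, minus strand: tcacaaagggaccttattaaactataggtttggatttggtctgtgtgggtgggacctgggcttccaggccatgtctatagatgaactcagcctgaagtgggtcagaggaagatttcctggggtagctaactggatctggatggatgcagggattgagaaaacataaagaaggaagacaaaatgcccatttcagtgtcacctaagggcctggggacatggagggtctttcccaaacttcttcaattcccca
In these windows Tmed5 holds a GC box and a reverse CCAAT box, Eif5 holds GC boxes on both strands, Ggact holds several GC boxes, and Marco holds no match to the 5 motifs.

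Of the 24 genes chosen for the smallest p in each direction, 10 of 12 higher genes and 12 of 12 lower genes had a promoter in the RefSeq table. These genes had 10 and 16 promoter windows, since some lower genes have more than 1. A GC box stood in 7 of the 10 windows of higher genes and 9 of the 16 of lower genes, against 32.7% of all 32851 promoter windows of this length. A CCAAT box stood in 2 of 10 and 6 of 16, against 33.9% of all windows. TGACG was found in 1 of 10 and 1 of 16 (17.8% of all), CACGTG in 1 of 10 and 1 of 16 (6.02%), and TGACTCA in 0 of 10 and 1 of 16 (4.46%). Counted by gene, a GC box stood in 7 of the 10 higher genes and 6 of the 12 lower genes. The named genes had to reach 1 CPM, whereas the windows of all promoters were not limited to expressed genes. Each match is only a run of letters in the window.

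Samd12, which encodes a protein with a sterile alpha motif domain, had 0.216, 0.215 and 0.268 CPM in Model 1 to 3 and 0.687, 1.20 and 1.47 CPM in Taurine 1 to 3. Proline 1 to 3 had 1.59, 1.04 and 1.11 CPM. All 6 treated libraries lay above the highest Model library, at a low level of expression, whereas Control had 35.5 ± 4.63 CPM (SD, n = 3). The log2 fold change was 2.33 (SE 0.28), with an adjusted p of 0.109 by edgeR's quasi-likelihood test. The adjusted p was 0.0482 when the 6 treated libraries formed 1 group, and it ranged from 5.22e-09 (DESeq2) to 0.682 over the alternatives tried. Each amino acid alone, against the same 3 Model libraries, gave 2.25 (SE 0.30) for taurine and 2.41 (SE 0.30) for proline.

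Plet1, a membrane-anchored surface protein found on alveolar macrophages, had 0.447, 0.660 and 0.395 CPM in Model, and the treated libraries ran from 0.952 through a median of 1.39 to 2.71 CPM. The groups did not overlap, and the highest library was Proline 1. The log2 fold change was 1.55 (SE 0.33), with an adjusted p of 0.363 by edgeR. Cxcl14, a chemokine made by epithelium and fibroblasts, had 3.19, 2.80 and 2.13 CPM in Model and 5.09 to 25.9 CPM in the treated tumours, with the highest value in Taurine 3. Its log2 fold change was 2.17 (SE 0.51), with an adjusted p of 0.423 by edgeR.

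The other higher genes named by p had small differences. Among genes of protein folding, transport and translation, Ipo7, a nuclear import receptor, had 155, 159 and 179 CPM in Model and 187, 200 and 220 CPM as the lowest, median and highest treated values. Tmed5, a cargo receptor between the endoplasmic reticulum and the Golgi, had 72.2, 63.9 and 83.6 CPM in Model and 92.3, 94.1 and 99.2 CPM in the treated libraries. In both genes the lowest treated library lay above the highest Model library, Model 3, and for Tmed5 the 6 treated libraries lay close together. Hspa4, an Hsp110-family co-chaperone, had 167, 172 and 180 CPM in Model and 185, 202 and 225 CPM in the treated libraries. Eif5, which activates the GTPase step of start codon selection, had 232, 233 and 262 CPM in Model and 276, 301 and 352 CPM in the treated libraries. The Proline libraries were the highest of Hspa4, at 207 to 225 CPM. The log2 fold changes of these 4 genes were 0.29 (SE 0.06) for Ipo7, 0.37 (SE 0.07) for Tmed5, 0.23 (SE 0.05) for Hspa4 and 0.33 (SE 0.07) for Eif5, with adjusted p of 0.34 to 0.392 by edgeR.

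Among signalling genes, Gng5, a gamma subunit of heterotrimeric G proteins, had 74.0, 71.2 and 74.6 CPM in Model and 80.2, 87.6 and 96.3 CPM as the lowest, median and highest treated values. Socs4, a member of the family that restrains cytokine signalling, had 37.5, 31.9 and 37.1 CPM in Model and 40.9, 44.0 and 52.0 CPM in the treated libraries. These separations amounted to log2 fold changes of 0.25 (SE 0.05) for Gng5 and 0.35 (SE 0.08) for Socs4. Pros1, which encodes the anticoagulant protein S, a ligand of the TAM receptor kinases, had 70.8, 78.8 and 74.8 CPM in Model and 83.2, 90.1 and 93.9 CPM in the treated libraries. Atad1, an ATPase that removes mislocalised proteins from the mitochondrial surface, had a log2 fold change of 0.20 (SE 0.04), and Hnrnph3, a splicing factor, one of 0.23 (SE 0.05). Reads of expressed genes such as Gng5 may be shared with processed copies elsewhere in the genome.

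**Figure D2:**
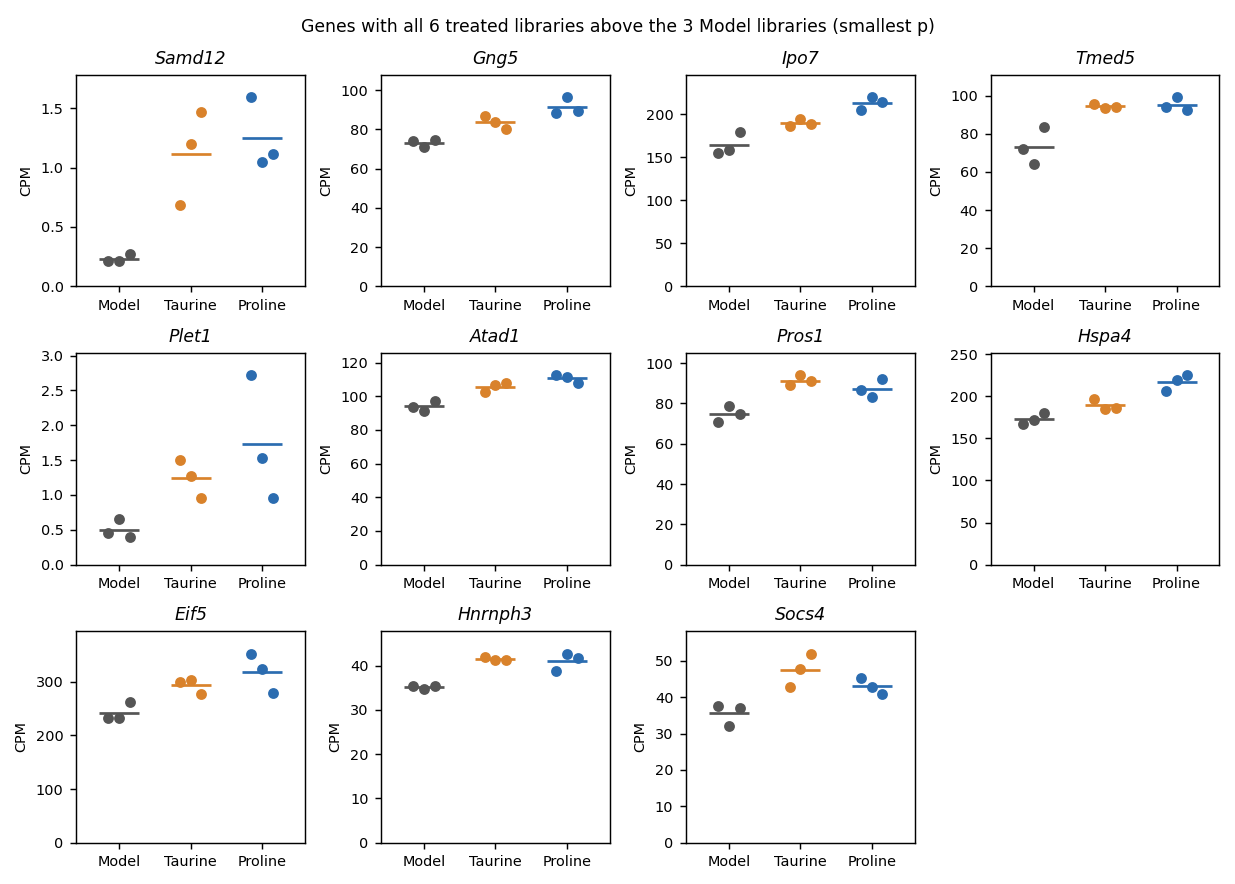
CPM after TMM scaling (y axis, from 0) of 11 genes named as higher, in the 3 Model, 3 Taurine and 3 Proline libraries; points are libraries and bars are group means. In Samd12 the 6 treated libraries run from 0.687 to 1.59 CPM and Model from 0.215 to 0.268, while most of the others stand only a little above Model.

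Marco, a scavenger receptor of macrophages that binds bacteria and particles, had 42.0, 58.2 and 34.5 CPM in Model, and the treated libraries had 14.0, 16.9 and 25.6 CPM as the lowest, median and highest. All 6 treated libraries lay below the lowest Model library, and Control had 11.6 ± 1.87 CPM (SD, n = 3). The log2 fold change was -1.32 (SE 0.21), with an adjusted p of 0.299 by edgeR, and it stayed between -1.47 and -0.92 over the alternatives tried. Of the 10 tested alveolar macrophage markers, which include Marco and Plet1, 1 was higher and 2 were lower at an unadjusted p under 0.05. Of all genes tested, 4.11% were higher and 4.86% lower at that p, and none of the markers passed. The list had a median log2 fold change of -0.11, whose sign was not stable: it was 0.30 without Model 1, 0.13 with the treated libraries as 1 group and -0.68 without Proline 1. The summed level overlapped, at 111 to 168 CPM in Model and 74.9 to 164 CPM in the treated tumours. In bulk RNA, fewer cells of a type and less RNA per cell cannot be told apart.

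Several lower genes belong to metabolism and transport. Idh1, the cytosolic isocitrate dehydrogenase that makes NADPH, had 120, 128 and 120 CPM in Model and 76.4, 99.8 and 107 CPM as the lowest, median and highest treated values, a log2 fold change of -0.34 (SE 0.07). Ggact, which breaks down gamma-glutamylamines released from crosslinked proteins, had 19.3, 19.8 and 20.3 CPM in Model and 11.2, 13.6 and 17.6 CPM in the treated libraries, a log2 fold change of -0.53 (SE 0.09). For Ggact the taurine value was -0.29 and the proline value was -0.76 against the same Model libraries, and the difference between the amino acids did not pass (0.47, SE 0.11, adjusted p = 0.123 by edgeR). The ATP-dependent exporters Abcc2 and Abcc5 were both lower. Abcc2, which exports conjugated organic anions, had 1.14, 1.03 and 0.884 CPM in Model, 0.181 to 0.804 CPM in Taurine and 0.0303 to 0.0614 CPM in Proline. Abcc5, an exporter of cyclic nucleotides and other anions, had 110, 121 and 110 CPM in Model and 74.8, 94.1 and 104 CPM in the treated libraries. Iah1, an esterase, had 24.2, 25.4 and 26.96 CPM in Model and 16.8, 19.7 and 21.4 CPM in the treated libraries, with no overlap. The adjusted p of these 5 genes were 0.299 to 0.363 by edgeR.

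Lower genes of the cytoskeleton and of transcription included Tmsb10 and Rarg. Tmsb10, a thymosin that binds actin monomers, had 714, 767 and 642 CPM in Model and 475, 567 and 584 CPM in the treated libraries, a log2 fold change of -0.35 (SE 0.07). Rarg, a retinoic acid receptor, had 116, 113 and 114 CPM in Model and 91.4, 95.4 and 106 CPM in the treated libraries, a log2 fold change of -0.25 (SE 0.05). Neither overlapped Model, as the choice required, and both had an adjusted p of 0.345 by edgeR. Drc3, a part of the dynein regulatory complex of cilia, had 2.13, 2.90 and 2.89 CPM in Model and 1.07, 1.34 and 1.78 CPM in the treated libraries. Myo5c, a class V myosin of epithelial cells, had a log2 fold change of -0.49 (SE 0.09), and Ankzf1, which releases stalled peptides from ribosomes, one of -0.35 (SE 0.07). The nearest libraries of Ankzf1, Model 3 and Proline 3, both measured 42 CPM when rounded. E530011L22Rik, a long non-coding RNA outside the naming rule, had 27.4, 18.4 and 33.3 CPM in Model and 3.35 to 10.97 CPM in the treated tumours.

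**Figure D3:**
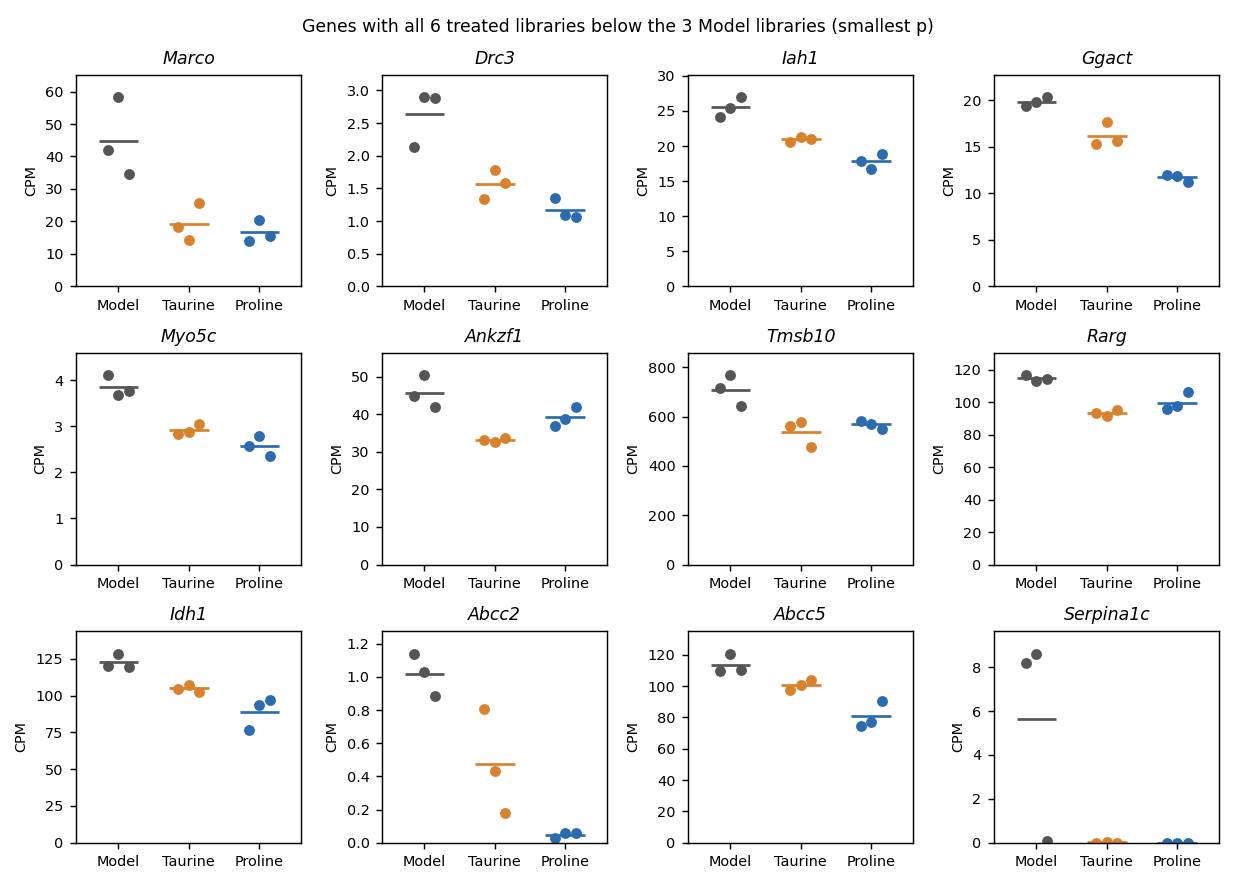
CPM after TMM scaling (y axis, from 0) of the 12 genes named as lower, in the 3 Model, 3 Taurine and 3 Proline libraries; points are libraries and bars are group means. Marco runs from 34.5 to 58.2 CPM in Model and from 14.0 to 25.6 CPM in the treated libraries; Serpina1c is high in 2 Model libraries only.

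Liver genes were lower as a group, and the difference followed 2 Model libraries. Of 20 liver markers tested, 19 were lower at an unadjusted p under 0.05, beside 4.86% of all genes tested. None of these markers passed the adjusted test, and 1 (Apoc3) had all treated libraries below Model, as did 1.99% of all genes tested. Their median log2 fold change was -7.35, beside 0 over all genes tested, and it was -4.90 with the 9 tumour libraries alone and -2.55 on the log2(FPKM + 0.1) scale. Their summed level was 342, 448 and 96.0 CPM in Model 1 to 3 and 75.4 to 131 CPM in the treated libraries, so that Model 3 lay within the treated range. Control had a higher sum than any tumour library, at 1701, 1635 and 1260 CPM, for a reason not tested. Albumin (Alb) had 76.1 and 95.5 CPM in Model 1 and Model 2, 0 in Model 3 and at most 0.196 CPM in a treated library. Without Model 1 and Model 2 the median of the list was 0.45, an alternative added after the values were seen. Apoc3, an apolipoprotein of triglyceride-rich particles, had 3.92, 5.23 and 0.0631 CPM in Model and at most 0.0585 CPM in a treated library. Serpina1c, a liver-made protease inhibitor with near-identical copies, had 1136 counts in Model and 3 in the treated libraries, a ratio of 767 for the mean level per library (95% interval 262 to 3723, counting error only). Its Model libraries had 8.17, 8.62 and 0.0789 CPM. Apof and Cfhr4, which are also made in liver but are not on the list, had 0.347 and 0.489 CPM in Model 3. Their treated libraries had at most 0.0571 and 0.153 CPM. Both genes were picked for a gap between all treated and all Model libraries, so a higher level in Model 3 follows from the choice.

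Granzymes of cytotoxic cells included 2 separated genes. Gzme, a serine protease of cytotoxic granules, had 0 counts in all 3 Model libraries and 0.380, 0.415, 1.255, 0.622, 0.737 and 1.07 CPM in Taurine 1 to 3 and Proline 1 to 3. Every treated library thus held its reads, and the treated mean was at least 49.4-fold higher than a floor of 3 counts over the Model libraries, with an adjusted p of 0.299 by edgeR. Gzmd, its near-identical neighbour, had 0.339, 0 and 0.395 CPM in Model and 0.424, 1.79 and 3.57 CPM as the lowest, median and highest treated values, and reads may be shared between these copies. Gzmb had 0.987, 0.832 and 1.86 CPM in Model and 1.69 to 22.2 CPM in the treated libraries, with the 2 highest values in Proline 1 and Proline 2, and it overlapped Model. Of 17 cytotoxic and NK cell markers tested, 8 were higher and 0 lower at an unadjusted p under 0.05. Of all genes tested, 4.11% were higher and 4.86% lower at that p. Among these markers 2 had all treated libraries above Model, as did 1.3% of all genes tested, and none passed. The median log2 fold change was 1.89, and it was 1.03 for taurine and 2.25 for proline against the same Model libraries. On the log2(FPKM + 0.1) scale, which understates low genes, it was 0.75. The summed level was 18.4, 8.45 and 9.47 CPM in Model and 15.2 to 79.2 CPM in the treated tumours, so the groups overlapped.

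Interferon-response and antigen-presentation genes did not separate the pooled treated tumours from Model. Of 28 interferon-response genes tested, 14 were higher at an unadjusted p under 0.05, beside 4.11% of all genes tested. None of these genes passed and 0 had the libraries apart, with a median log2 fold change of 0.79. Gbp2, an interferon-induced GTPase, measured 20.95, 12.9 and 15.5 CPM in the Model libraries, 47.6, 12.5 and 15.4 CPM in Taurine and 180.1, 288 and 18.4 CPM in Proline. The high values were in Proline 1 and Proline 2, with Taurine 1 next, and the other 3 treated libraries lay at or near the Model values. The list median was -0.07 for taurine and 1.71 for proline. Of 11 class I presentation genes, which show peptides to cytotoxic T cells, 5 were higher at an unadjusted p under 0.05 and 0 had the libraries apart, with a median of 0.63. That median was -0.06 for taurine and 1.22 for proline against the same Model libraries, and 0.41 without Taurine 1. B2m, the light chain of class I molecules, had 440, 388 and 415 CPM in Model and 352 to 1447 CPM in the treated libraries. The gene of the checkpoint ligand PD-L1, Cd274, was measured at 15.3, 10.9 and 13.1 CPM in Model, 10.2 to 13.1 CPM in Taurine, and 33.8, 65.3 and 11.9 CPM in Proline. Havcr2, the checkpoint receptor TIM-3, had 7.71, 7.47 and 7.54 CPM in Model and 7.86, 10.7 and 18.7 CPM in the treated tumours, with no overlap but an adjusted p of 0.503 by edgeR.

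Red cell genes had lower levels mainly in Taurine, and the 6 treated libraries did not separate from Model. The median log2 fold change of the markers was -1.69 for taurine and -0.28 for proline against the same Model libraries. Their summed level was 58.4 to 147 CPM in Taurine, 235 to 277 CPM in Proline and 213 to 348 CPM in Model. Of 8 erythroid markers tested, 7 were lower at an unadjusted p under 0.05, beside 4.86% of all genes tested. None of these markers passed and 0 had the libraries apart. The pooled median log2 fold change was -0.98 (-0.43 without Model 1 and Model 2). The beta-globin gene Hbb-bs had 99.4, 109 and 67.8 CPM in Model, 19.6 to 45.6 CPM in Taurine and 74.8 to 89.0 CPM in Proline, so the Proline libraries lay within the Model range. T cell markers had a median of -0.50 over 15 genes, with -1.66 for taurine and 0.47 for proline against the same Model libraries. The median was 0.18 without Model 1. It was -0.87 without Model 3, -0.91 without Taurine 1, -0.97 without Proline 1 and -0.28 without Proline 3. The summed level overlapped, at 11.7 to 72.1 CPM in Model and 5.95 to 86.5 CPM in the treated tumours.

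**Figure D4:**
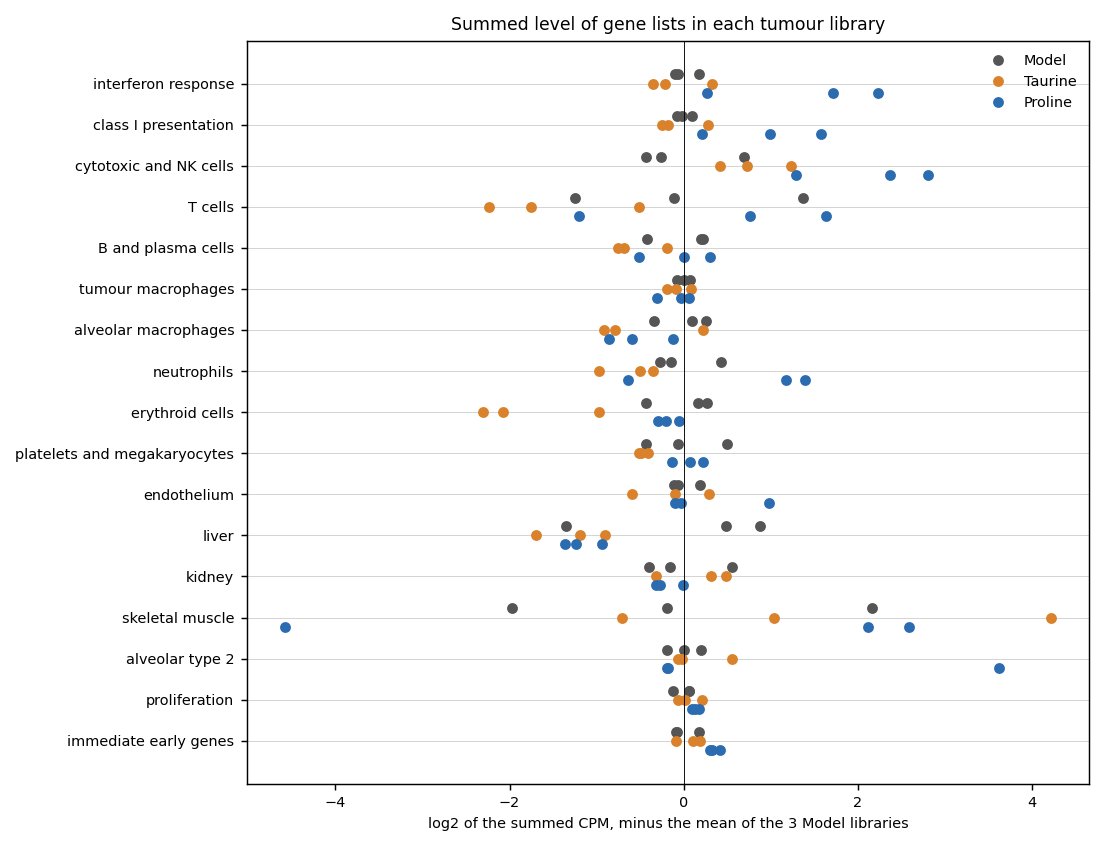
Each point is 1 tumour library; the x axis is the log2 of the summed CPM of a gene list minus the mean of the 3 Model libraries, and each line is 1 list. No list shown separates the 6 treated libraries (orange Taurine, blue Proline) from the 3 Model libraries (grey); the liver list is high in Model 1 and Model 2 only, and the interferon list is high in Proline 1 and Proline 2.

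The lists of immediate early and chaperone genes held 1 separated gene each, beside 3.29% of all genes tested. Arc, a gene that neurons switch on soon after a stimulus, had 0 counts in the 3 Model libraries and 0.190, 0.108, 0.287, 0.394, 0.384 and 0.813 CPM in Taurine 1 to 3 and Proline 1 to 3. The treated mean was at least 24.2-fold higher than a floor of 3 counts over the Model libraries, with an adjusted p of 0.187 by edgeR, and Control had 1.72 ± 0.17 CPM (SD, n = 3). Junb, an AP-1 subunit, had 61.7, 57.3 and 84.3 CPM in Model, 71.5 to 91.0 CPM in Taurine and 118 to 141 CPM in Proline. Of 24 immediate early genes, 7 were higher and 0 lower at an unadjusted p under 0.05, with a median of 0.22. The shares over all genes tested were 4.11% higher and 4.86% lower at that p. Hsp90aa1, the stress-inducible cytosolic Hsp90, had 546, 532 and 567 CPM in Model and 578, 623 and 728 CPM in the treated libraries, and its adjusted p was 0.578 by edgeR. Of 15 chaperone genes, 4 were higher and 0 lower at an unadjusted p under 0.05, with a median of 0.21 and none passing. Against the same Model libraries, the chaperone median was 0.04 for taurine and 0.29 for proline. The immediate early median was 0.11 for taurine and 0.40 for proline.

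Genes that handle taurine did not separate the groups. Slc6a6, the taurine transporter, had 258, 288 and 249.5 CPM in Model and 216, 248 and 287 CPM in the treated libraries, a log2 fold change of -0.08 (SE 0.07). Cdo1, which carries out the first step from cysteine to taurine, had 4.92, 6.54 and 2.34 CPM in Model and 1.74, 2.001 and 3.26 CPM in the treated tumours, which overlapped through Model 3. Csad, the next enzyme, had 31.0, 35.4 and 34.5 CPM in Model and 21.5, 27.5 and 32.5 CPM in the treated tumours, which overlapped through Taurine 3. The log2 fold changes were -1.01 (SE 0.30) for Cdo1 and -0.31 (SE 0.09) for Csad, with adjusted p of 0.45 and 0.438 by edgeR. Pter, an amidase of N-acetyltaurine, had a log2 fold change of -0.07 (SE 0.16). Of the 13 taurine genes tested, 1 was higher and 2 were lower at an unadjusted p under 0.05, 0 had the libraries apart, and the median was -0.08. The shares over all genes tested were 4.11% higher and 4.86% lower at that p.

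Among 18 genes that make, break down or import proline, 1 was higher and 1 lower at an unadjusted p under 0.05. The shares over all genes tested were 4.11% higher and 4.86% lower at that p. None of the 18 passed, and their median log2 fold change was 0.08. The summed level of this list was 906 to 957 CPM in Model and 958 to 1053 CPM in the treated tumours, a separation that had no test. The nearest libraries almost met, with 956.6 CPM in Model 3 and 958.1 CPM in Taurine 3. The sum was not computed under the other scalings. Oat, which links ornithine to proline synthesis, had 96.6, 90.0 and 98.7 CPM in Model and 98.8, 102 and 106 CPM in the treated tumours, a log2 fold change of 0.10 (SE 0.06) with an adjusted p of 0.669 by edgeR. Aldh18a1, which makes the precursor of proline from glutamate, had a log2 fold change of 0.04 (SE 0.09), and Pycr1, which completes the synthesis, one of 0.15 (SE 0.28). Prodh, which starts proline breakdown, had 0.02 (SE 0.14), and the importer Slc6a20a had 0.56 (SE 1.33) at under 1 CPM in every tumour. The libraries of these 4 genes overlapped between the groups.

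A few proliferation, matrix and macrophage genes had separated libraries, as did 3.29% of all genes tested. Mki67 had 249, 231 and 265 CPM in Model and 244, 255 and 296 CPM in the treated tumours, which overlapped, a log2 fold change of 0.07 (SE 0.11) with an adjusted p of 0.896 by edgeR. Mcm4, a subunit of the replicative helicase, had 99.7, 92.5 and 100.4 CPM in Model and 101, 115 and 129 CPM in the treated tumours, and it was the only separated member of 24 proliferation genes. Tnc, the matrix protein tenascin C, had 17.3, 12.1 and 16.6 CPM in Model and 18.9, 24.0 and 102 CPM in the treated tumours, with the highest value in Proline 1. Spp1, the secreted protein osteopontin, had 720.1, 703 and 786 CPM in Model and 851, 939 and 1106 CPM in the treated tumours, with an adjusted p of 0.785 by edgeR. Gp1bb, a platelet receptor subunit, Ccdc39, a ciliary assembly protein, and Snap25, a vesicle fusion protein of neurons, were also above Model in all 6 libraries, with log2 fold changes of 2.30 (SE 0.73), 0.39 (SE 0.19) and 2.0 (SE 1.22). Sdhc, a subunit of succinate dehydrogenase, and Mvd were below Model, with log2 fold changes of -0.14 (SE 0.06) and -0.16 (SE 0.10). None of these passed the test.

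Pseudogenes made up 136 of the 461 lower genes (29.5%), 20 of the 301 higher genes (6.64%) and 9.88% of all genes tested. The lower genes included 28 ribosomal protein pseudogenes and the higher genes 1, of 183 tested. The median length used for FPKM was 2542 bases for the lower genes, 5579 for the higher genes and 4214 for all genes tested. Protein-coding genes were 55.1% of the lower, 78.1% of the higher and 70.0% of all genes. From library totals, pseudogenes were 27% of the 600 lower and 8.56% of the 222 higher genes, and the median lengths were 2912 and 5540 bases, a comparison added after the values were seen. These shares were not tested, and reads of a pseudogene and its parent gene may be shared.

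**Figure D5:**
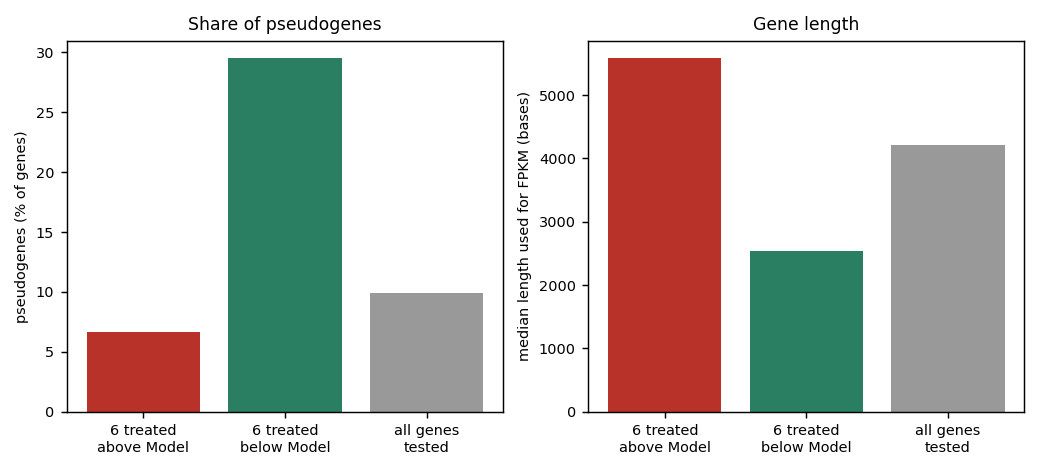
The left panel gives the percentage of pseudogenes and the right panel the median gene length in bases, for the 301 genes with all 6 treated libraries above Model, the 461 with all 6 below, and all 23191 tested genes. The genes below Model have the highest share of pseudogenes (29.5%) and the lowest median length (2542 bases).

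The amino acids were also compared directly. Against Model alone, taurine called 0 genes (smallest adjusted p 0.145) and proline called 0 (smallest adjusted p 0.0771) by edgeR's quasi-likelihood test, and both comparisons share the 3 Model libraries. Taurine against proline called 10 of 23191 genes (0.0431%), namely Stx17, Dennd1b, Tgfbr3, Dclk2, Wasf3, Actg1, Entpd4b, Trp53inp2, Snx20 and Spmip6, and none of them was among the named genes above. Tgfbr3, a co-receptor for transforming growth factor beta, measured 390.3, 421 and 379 CPM in the Model libraries, 392, 491 and 457 CPM in Taurine and 286, 280.3 and 295 CPM in Proline. Taurine exceeded proline by a log2 fold change of 0.64 (SE 0.08), with an adjusted p of 0.0421 by edgeR. Stx17, a syntaxin of autophagosome fusion, differed the same way by 0.50 (SE 0.06), with Taurine at 75.3 to 82.4 CPM, Model at 66.2 to 69.9 CPM and Proline at 54.6 to 55.6 CPM. In Stx17 the Model libraries lay between the treatments, so the pooled log2 fold change was -0.07 (SE 0.05).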

How the data were processed

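RNA from 12 mouse samples was sequenced from SMARTer mRNA libraries made from Qiagen RNeasy extracts, per the labels' protocols. For each of 36254 genes the authors deposited unnormalised counts in every library, per the file headers. Beside them stands the authors' FPKM, which divides counts by gene length and library size, per the file headers. The submitters' processing notes give mm10 as the build. The sources used here do not state the aligner, counter or strand setting, so overlapping and antisense genes and near-identical copies may share reads. The positions in the table do not match that build and are not used.

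From the counts, CPM after TMM scaling and the quasi-likelihood test of edgeR 4.0.16 (with limma 3.58.1 and R 4.3.3) were computed on 23191 genes that passed filterByExpr. All 12 libraries entered 1 fit with a mean per group, the contrast was the mean of Taurine and Proline minus Model, and p-values were two-sided with Benjamini-Hochberg adjustment over all genes. The threshold was an adjusted p of 0.05. The SE was taken from the log2 fold change and the F statistic. Adjusted p-values are edgeR's unless another tool is named. Ratios and floors of 3 counts cover counting error only, with 95% intervals. The groups follow the treatment label, and replicates are numbered in accession order, which pairs nothing.

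The named genes are, per direction, the 12 with the smallest p among genes with the treated and Model libraries apart and at least 1 CPM in the higher group, since none passed. Predicted genes, pseudogenes, mitochondrial genes and immunoglobulin or receptor segments were not eligible. For 1 of the higher genes so chosen the values are not reported here. Added were up to 2 separated members per direction of each of 50 gene lists, 9 taurine and proline genes, Mki67 and Cd274. The members, lists and tests were chosen with earlier results of these data known. Of 703 list symbols, 702 were matched, 5 of them through a gene ID, and 686 were tested. The fit was tested on simulated data with the same libraries and 21893 genes, and it recovered 48% of genes changed 2-fold and 2% of those changed 1.25-fold. The alternatives were 3 other scalings, no filter, the 9 tumour libraries alone, 1 pooled treated group, DESeq2 1.42.0, limma's voom with library weights, limma on log2(FPKM + 1) and log2(FPKM + 0.1), and each library left out.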

Additional observations from a re-analysis of the deposited data

Results flagged for a closer look

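Of 99 sets of 6 treated libraries examined (49 genes and the summed CPM of 50 lists), 14 had 1 library far from the other 5. Chance gives about 1 in 20 for independent, normally distributed values of 1 group. These sets pool 2 treatments, some lie near 0 and most genes were chosen on these values, so the 14 cannot be set against that rate. Proline 1 stood high in Plet1 (2.71 CPM), Tnc (102 CPM) and Slc6a20a (0.698 CPM), and low in Hnrnph3 (38.8 CPM against 41.3 to 42.7 CPM in the others). Proline 1 also stood high in the summed class II presentation genes (1536 CPM), alveolar type 2 genes (882 CPM against 63.0 to 106 CPM in the others) and ciliated cell genes (35.1 CPM). Taurine 3 stood low in Tmsb10 (475 CPM). It stood high in the summed basal and squamous epithelium genes (202 CPM against 0.273 to 2.27 CPM in the others), skeletal muscle genes (4492 CPM) and adipocyte genes (132 CPM). Taurine 2 stood high in Gp1bb (1.68 CPM) and in Serpina1c (0.0462 CPM, the only treated library above 0). Taurine 1 was the only treated library with reads of Apoc3 (0.0585 CPM). The genes named here were eligible only with the 6 treated libraries on one side of Model, so their separation follows from the choice. Slc6a20a was chosen without that condition, and its libraries overlapped.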

How the results depend on the processing

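No paired analysis was possible because the labels give no replicate numbers that tie libraries across groups. The count of 0 called genes held under median-ratio, upper-quartile and library-total scaling, no filter, the 9 tumour libraries alone and voom with library weights. It was 1 (higher, Samd12) with 1 pooled treated group, 177 (89 higher, 88 lower) with DESeq2, which gave no adjusted p to 1075 genes, 1 (lower) with limma on log2(FPKM + 1), and 2 (1 higher, 1 lower) on log2(FPKM + 0.1). Leaving out 1 library gave 0 to 17 calls, 0 to 9 higher and 0 to 8 lower, with the 17 without Model 3 and 1 without Taurine 1. Without Model 1 and Model 2 together, chosen after seeing the data, there was 1 call (higher); the cause of these differences was not tested. The lone Model library is then assumed to vary like the other groups.

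The 762 genes with separated libraries were 822 from library totals (222 higher, 600 lower), 801 from FPKM (232 higher, 569 lower) and 812 with no filter (292 higher, 520 lower). With a gap of at least 0.5 (log2) there were 7, 3 higher and 4 lower. Leaving out 1 library gave 918 to 2438, 377 to 1136 higher and 541 to 1302 lower. Without Model 1 and Model 2 together there were 4707, 2116 higher and 2591 lower. Fewer libraries make the condition easier, but the count also depended on which library was left out, for a reason not tested.

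Over 1125 values of named genes under the alternatives, 1078 kept their direction and side of the threshold, 34 passed it newly and 13 changed sign. Prodh changed sign at upper-quartile scaling (-0.00029), library totals (-0.013), log2(FPKM + 1) (-0.0061), log2(FPKM + 0.1) (-0.0092), without Model 1 (-0.058) and without Taurine 1 (-0.036), and leaving out 1 library gave -0.058 to 0.14. Slc6a20a did without Model 1 (-0.013), Taurine 3 (-0.58) or Proline 1 (-0.69), with a range of -0.69 to 2.15, Aldh18a1 without Model 2 (-0.0010) or Proline 2 (-0.00057), with a range of -0.0010 to 0.082, Pter without Model 3 (0.028), with a range of -0.16 to 0.028, and Slc6a6 without Model 1 and Model 2 (0.027). Depth limits Serpina1c and Apoc3 in the treated libraries and Arc and Gzme in Model, where counts were at or near 0.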
